A study of Sus scrofa with 6 samples.

Results

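The mitochondrial carriers of the SLC25 family were followed in pig oocytes as the genes whose name in the deposited table begins with SLC25A and a number, with at least 1 read in at least 3 of the 6 libraries. All 37 rows with such a name met the count rule, out of 19296 rows in the table. SLC25A45 lay at its edge, with 1, 1 and 3 reads in the libraries in which it was seen. The oocytes came from abattoir ovaries of prepubertal gilts and were freed of their cumulus cells before RNA was isolated. Large follicles with a diameter of 3 to 6 mm gave 3 libraries, and small follicles with a diameter of 1.5 to 1.9 mm gave another 3. Follicle size is the only difference the labels give, and no group was treated. The series asks how transcripts differ between oocytes of different developmental competence.

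SLC25 proteins are carriers of the inner mitochondrial membrane, which is closed to most charged metabolites. Each moves a narrow set of substrates, often by exchanging one for another, such as ADP for ATP or aspartate for glutamate. A few family members sit in other membranes. The oocyte relies on its mitochondria for ATP during growth and maturation, so the carriers link the cytosol to the metabolism that supplies it.

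Total reads ranged from 8015357 in large-follicle library 3 to 56887282 in large-follicle library 2, and reads in carriers from 15452 to 108629. Large-follicle library 3 stood apart on the first principal component (54.5, against -15.0 to -6.03 in the other libraries). Oocyte markers were present, with gene means from 16.5 to 3366 CPM for all 7 listed genes. Summed granulosa and cumulus markers ranged from 124 to 188 CPM, theca and stroma markers from 12.4 to 16.2 CPM, and blood, immune and endothelial markers from 5.93 to 8.62 CPM. Of these, 2 of 9, 4 of 7 and 5 of 6 genes stayed under 1 CPM in all libraries, and none was at 0 in all. CPM are read counts scaled to library size with TMM factors, and TPM are the authors' values per gene length. The labels do not say that replicates were separate collections, so p-values reflect only how these libraries vary, which may be technical. In pooled oocytes, fewer cells with a transcript and less of it per cell cannot be told apart.

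The family as a whole took a similar small share of the transcriptome in either group. Carrier TPM summed to 1692, 1790 and 1698 in large-follicle libraries 1, 2 and 3 and to 1690, 1693 and 1712 in small-follicle libraries 1, 2 and 3. That was 0.173% ± 0.0055 of all TPM in large-follicle and 0.170% ± 0.0012 in small-follicle oocytes (SD, n = 3 each), and the groups overlapped. Levels within the family were very uneven. By mean TPM over all libraries, 5 members reached 100 or more, 12 lay from 20 to under 100, 14 from 1 to under 20, and 6 under 1. The 5 most abundant members, SLC25A13, SLC25A5, SLC25A17, SLC25A44 and SLC25A26, held between 60.3% and 61.6% of members' TPM in every library. These sums and ranks leave out carriers listed under Ensembl identifiers alone, of which SLC25A32 (266 TPM) and SLC25A10 (104 TPM) would rank above SLC25A26. Identifiers without a symbol could hold further carriers.

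**Figure D1:**
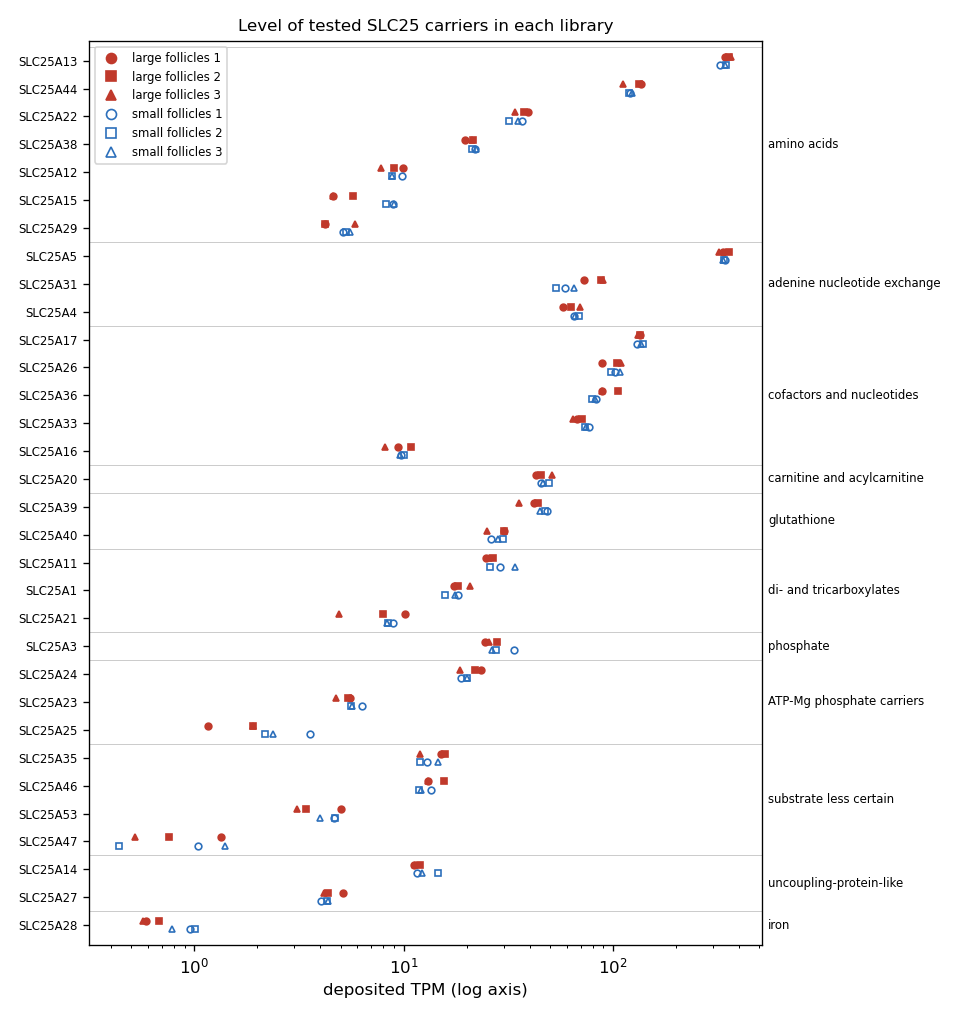
Deposited TPM on a log axis for 32 carriers that passed the filter on low counts, one row per gene, grouped by substrate; filled symbols are large-follicle and open symbols small-follicle libraries. SLC25A13 and SLC25A5 stand at the top in every library, and for SLC25A15, near the foot of the amino acid carriers, the filled symbols lie to the left of the open ones.

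Among carriers of amino acids, SLC25A13 was the most abundant member of the family. It encodes citrin, which exchanges aspartate for glutamate in the malate-aspartate shuttle. Its level was 344, 358 and 366 TPM in large-follicle libraries 1, 2 and 3, and 326, 348 and 343 TPM in small-follicle libraries 1, 2 and 3. These groups overlapped, and the log2 difference, large minus small, was 0.078 (SE 0.070). SLC25A12, which encodes the other aspartate-glutamate exchanger, stood at only 8.90 ± 1.08 and 9.14 ± 0.56 TPM in large-follicle and small-follicle oocytes (mean ± SD, n = 3 each). Citrin thus exceeded its paralog by between 33.3 and 47.1 times in TPM within each library. SLC25A44, a carrier of branched-chain amino acids, followed at 135, 134 and 112 TPM in large-follicle libraries 1, 2 and 3 and 121, 120 and 123 TPM in small-follicle libraries 1, 2 and 3. The groups overlapped, with a log2 difference of 0.076 (SE 0.080). SLC25A22, a glutamate carrier, stood at 36.9 ± 2.75 and 34.6 ± 2.40 TPM, SLC25A38, a glycine carrier needed for haem synthesis, at 20.8 ± 0.96 and 21.8 ± 0.44 TPM, and SLC25A29, a carrier of basic amino acids, at 4.76 ± 0.94 and 5.32 ± 0.23 TPM.

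SLC25A15 had the smallest p of the 33 carriers tested. It encodes the ornithine carrier that brings ornithine into the matrix in exchange for citrulline, and in Sscrofa11.1 it lies on chromosome 11 from 15494176 to 15551172. It had 7.07, 8.56 and 7.16 CPM in large-follicle libraries 1, 2 and 3, and 13.4, 12.7 and 13.6 CPM in small-follicle libraries 1, 2 and 3. Every large-follicle library was below every small-follicle library, and large-follicle library 3 lay between the other large-follicle libraries. The log2 difference was -0.78 (SE 0.12, 95% interval -1.05 to -0.51), with a small-follicle mean 1.74 times the large-follicle mean. By edgeR's quasi-likelihood test it did not pass (adjusted p = 0.0677 over 14091 genes tested), while DESeq2's test on the same counts called it (adjusted p = 0.000110). SLC25A2, the second ornithine carrier, was too scarce to test, with 0, 6 and 0 reads in the large-follicle and 10, 9 and 8 reads in the small-follicle libraries.

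Adenine nucleotide exchangers with a named row, which SLC25A6 lacked, were led by SLC25A5, which encodes a ubiquitous ADP/ATP carrier. Its level was 336, 357 and 321 TPM in large-follicle libraries 1, 2 and 3 and 341, 340 and 335 TPM in small-follicle libraries 1, 2 and 3. This was the steadiest carrier tested over the 6 libraries, with a coefficient of variation of 2.49% in CPM. SLC25A4, the isoform known from heart and skeletal muscle, stood at 63.5 ± 6.04 and 66.6 ± 1.97 TPM, with overlapping groups. These genes resemble one another, and the sources used here do not give how reads matching several genes were counted, which makes their separate levels uncertain.

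SLC25A31, the ADP/ATP carrier known in mice from male germ cells and needed there for spermatogenesis, had higher means in large-follicle oocytes. It lies on chromosome 8 from 97095503 to 97120940. It had 20.0, 23.6 and 25.1 CPM in large-follicle libraries 1, 2 and 3 and 16.0, 14.9 and 17.7 CPM in small-follicle libraries 1, 2 and 3, without overlap. The log2 difference was 0.49 (SE 0.12, 95% interval 0.23 to 0.75), a ratio of means of 1.41. It did not pass by edgeR's quasi-likelihood test (adjusted p = 0.102), and it passed by DESeq2's (adjusted p = 0.0119). Its level per length was close to that of the muscle isoform: its TPM was 1.25, 1.40 and 1.28 times that of SLC25A4 in large-follicle libraries 1, 2 and 3, and 0.903, 0.780 and 0.992 times in small-follicle libraries 1, 2 and 3. By these values SLC25A31 stood above SLC25A4 in every large-follicle library and below it in every small-follicle library, though nearly level in small-follicle library 3. SLC25A31 resembles the other ADP/ATP carriers, so this order is uncertain for the reason given above for SLC25A5 and SLC25A4.

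**Figure D2:**
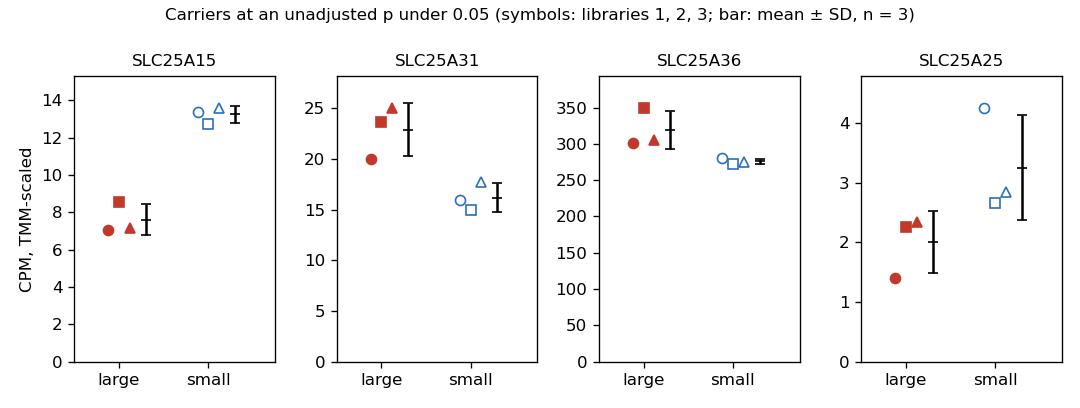
CPM in each library for the 4 carriers at an unadjusted p under 0.05 by edgeR, with the group mean ± SD (n = 3) beside the points and each axis starting at 0. SLC25A15 and SLC25A25 were lower, and SLC25A31 and SLC25A36 higher, in every large-follicle library than in any small-follicle library.

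Carriers of nucleotides and cofactors made up the next large group. SLC25A17, a carrier of the peroxisomal membrane, had 135, 134 and 132 TPM in large-follicle libraries 1, 2 and 3 and 130, 138 and 136 TPM in small-follicle libraries 1, 2 and 3. SLC25A26, which imports the methyl donor S-adenosylmethionine, had 88.8, 105 and 109 TPM in the large-follicle and 102, 98.1 and 108 TPM in the small-follicle libraries, in that order. Both overlapped between the groups and had log2 differences near 0, at -0.0047 (SE 0.069) and -0.022 (SE 0.091). SLC25A16, linked to coenzyme A in mitochondria, was low, at 9.63 TPM over all libraries.

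The pyrimidine nucleotide carriers SLC25A36 and SLC25A33 differed between the groups with opposite signs. SLC25A36, on chromosome 13 from 81750189 to 81791869, had 302, 350 and 306 CPM in large-follicle libraries 1, 2 and 3 and 280, 272 and 275 CPM in small-follicle libraries 1, 2 and 3. SLC25A33 had 117, 120 and 113 CPM in the large-follicle and 131, 129 and 126 CPM in the small-follicle libraries, in the same order. Neither gene's groups overlapped. The log2 differences were 0.21 (SE 0.077) and -0.14 (SE 0.068), and neither passed by edgeR's quasi-likelihood test (adjusted p = 0.198 and 0.308). By DESeq2, SLC25A36 passed without large-follicle library 3 (adjusted p = 0.0159) and not with all libraries (adjusted p = 0.111). Within a library, the TPM of SLC25A36 was 1.31, 1.48 and 1.37 times that of SLC25A33 in large-follicle libraries 1, 2 and 3, against 1.08, 1.07 and 1.10 times in small-follicle libraries 1, 2 and 3.

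**Figure D3:**
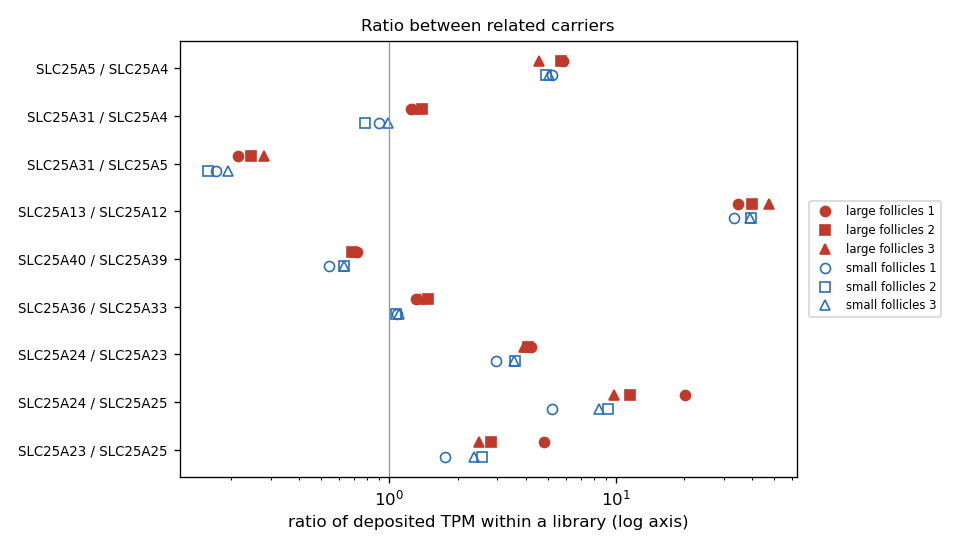
Ratio of deposited TPM between related carriers within each library, on a log axis with a grey line at equality; filled symbols are large-follicle and open symbols small-follicle libraries. The ratio of SLC25A31 to SLC25A4 lies above 1 in all large-follicle and below 1 in all small-follicle libraries, and the ratios that share a gene are not independent.

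Calcium-regulated carriers that exchange ATP-Mg for phosphate were led by SLC25A24, at 21.3 ± 2.47 TPM in large-follicle and 19.6 ± 0.75 TPM in small-follicle oocytes. SLC25A23 stood at 5.23 ± 0.43 and 5.85 ± 0.40 TPM. SLC25A25, on chromosome 1 from 268531752 to 268575195, was scarce, with 1.40, 2.26 and 2.35 CPM in large-follicle libraries 1, 2 and 3 and 4.26, 2.66 and 2.84 CPM in small-follicle libraries 1, 2 and 3. Its groups did not overlap, but large-follicle library 3 and small-follicle library 2 lay close together, and large-follicle library 3 held only 19 reads. The log2 difference was -0.72 (SE 0.27; edgeR's quasi-likelihood test, adjusted p = 0.205), and it was -0.47 without small-follicle library 1. The phosphate carrier SLC25A3, which supplies phosphate for ATP synthesis, stood at 26.0 ± 1.80 and 29.2 ± 3.82 TPM, with overlapping groups.

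Members that carry organic acids, fatty acyl groups or glutathione lay between 8.11 and 46.7 TPM over all libraries. SLC25A10, listed under an Ensembl identifier alone, is left out of that range. SLC25A20, the carnitine-acylcarnitine carrier through which fatty acids reach oxidation, stood at 46.4 ± 4.09 TPM in large-follicle and 47.0 ± 2.36 TPM in small-follicle oocytes. SLC25A11, the oxoglutarate-malate carrier, stood at 25.6 ± 0.99 and 29.6 ± 4.14 TPM, and SLC25A1, the citrate carrier, at 18.8 ± 1.73 and 17.2 ± 1.32 TPM. SLC25A21, an oxodicarboxylate carrier, had 4.57 CPM in large-follicle library 3 and 7.17 to 9.30 CPM in the other libraries. The glutathione carrier SLC25A39 had 45.5, 46.1 and 38.9 CPM in large-follicle libraries 1, 2 and 3 and 51.3, 51.4 and 47.7 CPM in small-follicle libraries 1, 2 and 3, without overlap. Its log2 difference was -0.20 (SE 0.089; edgeR's quasi-likelihood test, adjusted p = 0.286), and its paralog SLC25A40 differed by 0.033 (SE 0.094).

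Uncoupling-protein-like carriers and the only iron carrier with a named row were low. SLC25A30, listed with the former, and SLC25A37, listed for iron, had no row by name. SLC25A14 stood at 11.5 ± 0.43 and 12.8 ± 1.60 TPM, and SLC25A27 at 4.55 ± 0.51 and 4.23 ± 0.17 TPM. SLC25A28, which encodes mitoferrin 2, had under 1.10 CPM in every library, with 13, 39 and 5 reads in large-follicle and 57, 37 and 33 reads in small-follicle libraries. SLC25A46, which sits in the outer mitochondrial membrane and acts in its dynamics, stood at 13.9 ± 1.42 and 12.5 ± 0.92 TPM. The other members with less certain substrates ranged from SLC25A35, at 13.7 TPM over all libraries, down to SLC25A45, at 0.036 TPM.

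Neighbouring carrier genes had very different levels. SLC25A43 ends 12523 bases before SLC25A5 on chromosome X, and their mean levels were 0.118 and 338 TPM. On chromosome 7, SLC25A47 begins 11843 bases after the end of SLC25A29, with 0.917 and 5.04 TPM. The 36 members with a position were spread over 14 chromosomes.

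Across the family, no carrier passed the adjusted threshold of 0.05 by edgeR's quasi-likelihood test, where 0.0142% of all genes tested passed as higher and 0.0497% as lower in large-follicle oocytes. SLC25A2, SLC25A34, SLC25A43 and SLC25A45 were removed by the filter on low counts, and 33 carriers were tested. At an unadjusted p under 0.05 by edgeR there were 2 carriers with higher means (SLC25A31 and SLC25A36) and 2 with lower means (SLC25A15 and SLC25A25). That was 12.1% of those tested, beside 18% of all genes tested in either direction (9.85% higher and 8.17% lower). Groups did not overlap for 2 carriers higher and 6 lower in large-follicle oocytes, beside backgrounds of 12.1% higher and 11.6% lower. Taken in either direction, groups were apart for 24.2% of the tested carriers and 23.7% of all genes tested. Means were lower in large-follicle oocytes for 21 of 33 carriers, and for 49.2% of all genes tested. The median log2 difference was -0.022 for the carriers and 0.0039 for all genes tested. These counts leave out carriers listed under Ensembl identifiers alone. Of those, SLC25A32 was higher and SLC25A10 lower in large-follicle oocytes, each without overlap (edgeR, unadjusted p = 0.0101 and 0.0201). SLC25A48 had overlapping groups and an unadjusted p of 0.0980 by edgeR.

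**Figure D4:**
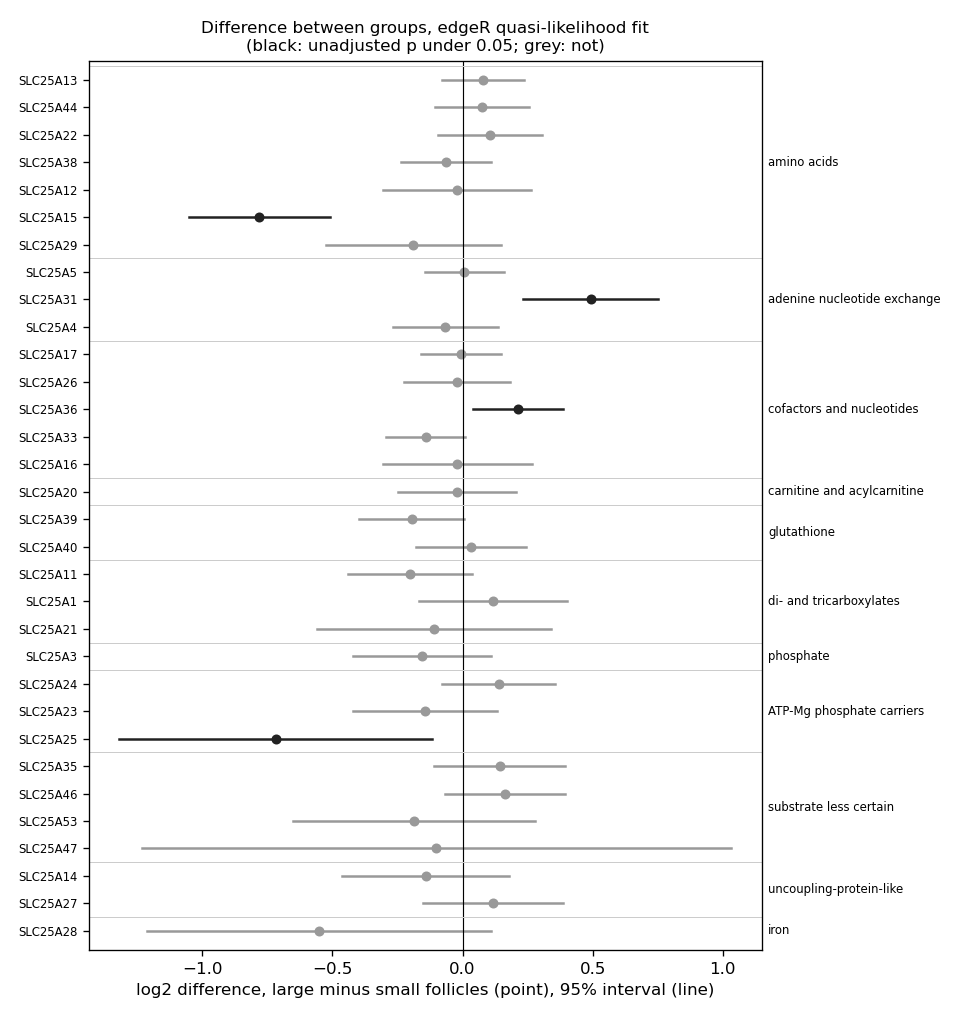
Log2 difference between groups, large minus small follicles, for 32 tested carriers, with its 95% interval from edgeR's quasi-likelihood fit; black marks an unadjusted p under 0.05. Most points lie within 0.3 of 0, with SLC25A15, SLC25A25 and SLC25A28 (grey) to the left and SLC25A31 to the right.

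DESeq2's test passed SLC25A31 as the 1 carrier higher and SLC25A15 as the 1 carrier lower in large-follicle oocytes, where it passed 2.84% of all genes as higher and 2.29% as lower. It gave no adjusted p for the scarce carriers SLC25A25, SLC25A28, SLC25A47 and SLC25A53, so these could not pass by it. SLC25A15 also passed by DESeq2 without each single library, with adjusted p from 3.35e-05 to 0.0172. SLC25A31 passed by DESeq2 without large-follicle library 1 or 3 or small-follicle library 3, and not without large-follicle library 2 (adjusted p = 0.119), small-follicle library 1 (0.162) or small-follicle library 2 (0.175). By edgeR without large-follicle library 3, SLC25A15 (adjusted p = 0.00741) and SLC25A31 (adjusted p = 0.0325) passed, where 7.79% of all genes passed as higher and 5.37% as lower. Without that library SLC25A29 differed by -0.35 (SE 0.11) and did not pass by edgeR (adjusted p = 0.0692). Summed oocyte markers, at 10205 ± 967 CPM against 13334 ± 506 CPM, were lower in every large-follicle library than in any small-follicle library, and their part in these differences was not tested. Granulosa and cumulus markers, at 148 ± 22.7 and 159 ± 32.3 CPM, overlapped between the groups.

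**Figure D5:**
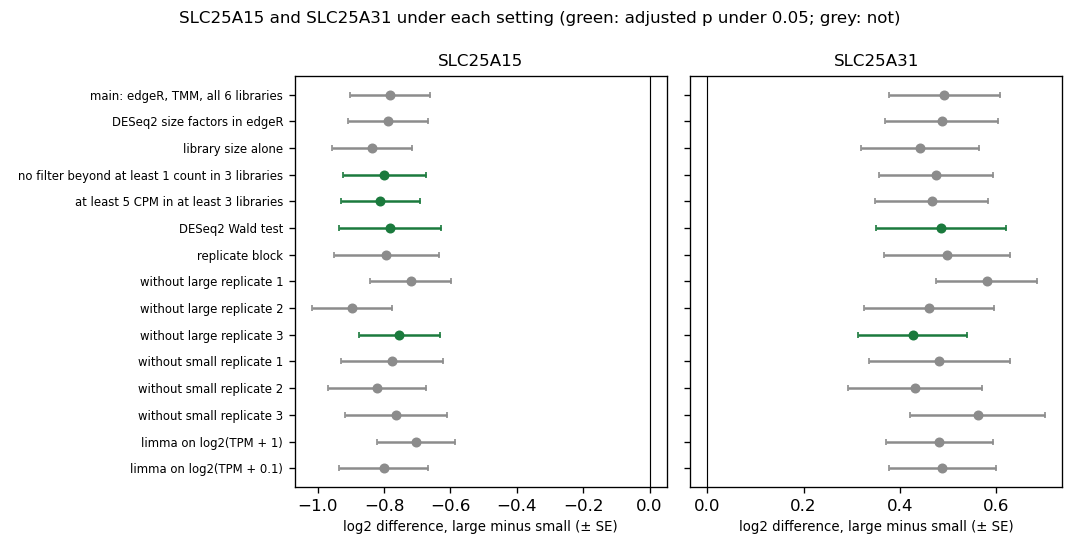
Log2 difference (± SE) of SLC25A15 and SLC25A31 under each way of processing; green marks an adjusted p under 0.05. SLC25A15 stays between -0.90 and -0.70 and SLC25A31 between 0.43 and 0.58.

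The spread between libraries was wider in large-follicle oocytes. The median coefficient of variation of the tested carriers was 10.2% among large-follicle and 5.53% among small-follicle libraries, beside 13.4% and 6.21% over all genes tested. It was larger in the large-follicle group for 25 of 33 carriers, and for 80.3% of all genes tested. Large-follicle library 3 lay farthest from its group's median for 39.4% of the tested carriers and 48.2% of all genes tested. The part of depth in this spread was not tested.

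Carriers are inserted into the inner membrane by the TIM22 route, with TOMM70 as a receptor on the outer membrane and small TIMM proteins as chaperones between the membranes. Of 13 genes of this route, all tested, 0 passed by edgeR or DESeq2. At an unadjusted p under 0.05 by edgeR, 1 was higher and 1 lower in large-follicle oocytes. That was 15.4% of the list, beside 18% of all genes tested in either direction (9.85% higher and 8.17% lower). The pore gene TOMM40 differed by -0.28 (SE 0.096) and AGK, a lipid kinase that is also part of the TIM22 complex, by 0.27 (SE 0.11). Of 5 family members with other symbols, 2 were tested. MTCH1, which resembles carriers and sits in the outer membrane, differed by -0.21 (SE 0.088). UCP2, an uncoupling protein, had 1.26, 0.326 and 0.123 CPM in large-follicle libraries 1, 2 and 3, with only 1 read in library 3. It had 1.40, 1.24 and 1.49 CPM in small-follicle libraries 1, 2 and 3. For both MTCH1 and UCP2 the groups overlapped. Neither passed by edgeR or DESeq2, and both were lower at an unadjusted p under 0.05 by edgeR.

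Of 16 listed genes for other mitochondrial membrane transporters, 13 were tested and 0 passed by edgeR. At an unadjusted p under 0.05 by edgeR, 2 were higher and 1 lower (23.1%), beside 18% of all genes tested in either direction (9.85% higher and 8.17% lower). MPC1, a subunit of the mitochondrial pyruvate carrier, differed by -0.48 (SE 0.12), and the outer membrane channel VDAC1 by 0.19 (SE 0.072). Of 32 listed enzymes that use what the carriers move, 28 were tested and 0 passed by edgeR, with 1 higher and 4 lower (17.9%) at that p, beside the same backgrounds. CPT2, which works beside SLC25A20 in fatty acid import, had a large-follicle mean of 56.3 ± 5.21 CPM against 73.6 ± 2.91 CPM, and differed by -0.39 on the log2 scale (SE 0.087). OAT, a matrix enzyme that uses ornithine, stood at 33.2 ± 1.95 and 26.7 ± 0.32 CPM and differed by 0.30 (SE 0.084). OTC, the matrix enzyme that makes citrulline from ornithine, was too scarce to test, with 1, 13 and 2 reads in the large-follicle and 17, 8 and 12 reads in the small-follicle libraries. DESeq2's test passed MPC1 (adjusted p = 0.0207) and CPT2 (adjusted p = 0.00508) among the partner genes, both as lower, where it passed 2.29% of all genes as lower. Without large-follicle library 3, edgeR passed 2 partner genes as higher (AGK and MICU2) and 6 as lower (MPC1, CPT2, CRAT, MTCH1, TIMM29 and TOMM40), where 7.79% of all genes passed as higher and 5.37% as lower.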

How the data were processed

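RNA of denuded oocytes was sequenced from directional libraries, per the labels' protocols, which give 360 oocytes with 3 replicates without saying per what. The authors deposited whole-number read counts per gene, not normalised, and TPM values scaled to gene length and library. Per the submitters' processing notes, reads were placed on Sscrofa11.1. How they were aligned, counted and annotated, and whether strand was used, is not given in the sources used here. Samples were grouped by title. Rows with a date as name (25, with a mean of 0.153% of counts) were left out. Rows named by an Ensembl identifier (4604) were given a symbol where the name table had an unused one (853 of 875). Gene positions were looked up by symbol in RefSeq's genes for that assembly.

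Counts were fitted on group alone with edgeR 4.0.16 (R 4.3.3) after filterByExpr and TMM scaling, by its robust quasi-likelihood F test, and p-values were adjusted over 14091 genes (Benjamini-Hochberg). Each SE was taken from the log2 difference and its F value. DESeq2 1.42.0 and limma 3.58.1 were run as alternatives. The scripts were tested on simulated counts. No library repeated another of its group (chi-square over degrees of freedom between 10.4 and 22.2). Precision is lowest in large-follicle library 3, the shallowest.

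The members and lists were chosen with earlier results of these data known. Values in every library are given for carriers at an unadjusted p under 0.05 and for the most abundant, and group means for carriers of the same substrate. SLC25A33, SLC25A39, SLC25A21, SLC25A28 and SLC25A2 were given by library after their values were seen. Of each partner list, the members with the smallest p are named. OTC, and genes called only without large-follicle library 3, were named after their values were seen. Values of 1 carrier are not reported here, though it is counted among the members.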

Additional observations from a re-analysis of the deposited data

How the results depend on the processing

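Replicate numbers did not pair the libraries: deviations of same-numbered libraries from their group means correlated at -0.095, 0.0028 and -0.16. With a replicate block in the fit, 0 carriers passed and 1 had a higher mean at an unadjusted p under 0.05. No carrier passed with DESeq2's size factors or library size alone in edgeR or by limma on log2(TPM + 1) or log2(TPM + 0.1). SLC25A15 passed as the 1 lower carrier with no filter beyond 1 count in 3 libraries (adjusted p = 0.0375 by edgeR) and at 5 CPM (0.0485). By DESeq2, 1 carrier passed as higher and 1 as lower, 4 were lower at an unadjusted p under 0.05, and 2 partner genes passed as lower. Scaling to library size alone moved the median of all genes to -0.049 and gave 1 carrier higher and 5 lower at an unadjusted p under 0.05. Each limma setting gave 1 higher at that p. Of 14091 genes, those at that p in either direction numbered 2528 with library size alone, 1840 with the replicate block and 2472 by DESeq2. They numbered 2193 and 2157 by limma with pseudocounts of 1 and 0.1.

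Leaving out each library in turn, by edgeR or (chosen after seeing the data) DESeq2, 0 to 2 carriers passed as higher and 0 to 1 as lower, and at an unadjusted p under 0.05 there were 1 to 4 higher and 1 to 5 lower. Of partner genes, 0 to 3 passed as higher and 0 to 7 as lower. The highest of these counts came without large-follicle library 3 (4 higher and 5 lower carriers at an unadjusted p). Without that library, 4143 of all 14429 genes tested were at that p by edgeR in either direction. DESeq2 then passed 2516 of 14429.

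Of 222 values with an adjusted p for 16 named carriers under 14 alternatives, 200 kept their sign and side of the threshold, 6 newly passed and 16 changed sign, in 5 carriers that lay near 0. SLC25A5 changed to -0.045 with library size alone, -0.011 with no filter, -0.020 at 5 CPM and -0.0026 by limma with either pseudocount, and SLC25A40 to -0.020 with library size alone. Without single libraries, SLC25A5 ranged from -0.018 to 0.023, SLC25A40 from -0.021 to 0.090, SLC25A12 from -0.11 to 0.029, SLC25A17 from -0.035 to 0.020 and SLC25A26 from -0.097 to 0.059. The cause was not tested. Depth limits the scarce carriers: large-follicle library 3 held 5 reads of SLC25A28 and 2 of SLC25A47.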

Other observations

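The table also held 4 carriers under Ensembl identifiers alone, which the name table calls SLC25A32, SLC25A10, SLC25A48 and SLC25A41. No row was named SLC25A6, SLC25A18, SLC25A30, SLC25A37, SLC25A42, SLC25A51 or SLC25A52. Rows under Ensembl identifiers without a symbol could hold these or other carriers. SLC25A32, which is linked to the import of folate and flavin, was among the most abundant of the family at 266 TPM. It had 228, 219 and 189 CPM in large-follicle libraries 1, 2 and 3 and 175, 168 and 183 CPM in small-follicle libraries 1, 2 and 3, a log2 difference of 0.28 (SE 0.086; edgeR's quasi-likelihood test, adjusted p = 0.153). The groups did not overlap, though large-follicle library 3 lay near the small-follicle libraries. SLC25A10, the dicarboxylate carrier, stood at 93.3 ± 8.49 TPM in large-follicle and 114 ± 7.91 TPM in small-follicle oocytes (SD, n = 3 each), a log2 difference of -0.29 (SE 0.10) that did not pass. SLC25A48 differed by -0.29 (SE 0.16), and SLC25A41 had 1 read in all.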
